A study of Mus musculus with 12 samples.

Results

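Clone G5 is a line of NIH3T3 mouse fibroblasts in which Aebp1 was knocked out, and its RNA was compared with that of the parental line over every expressed gene. The comparison used 6 of the 12 RNA libraries of the series: 3 of G5, at passages 7, 8 and 9, and 3 of the parental line, wild type at Aebp1, at passages 6, 7 and 8. NIH3T3 is an immortalised embryonic fibroblast line, and the title of the series sets AEBP1 in the fibroblasts of tumours. The libraries were made from ribosome-depleted total RNA of cells that all grew in the same serum-supplemented medium. The other 6 libraries, of the knockout clones F5 and H7 at passages 7, 8 and 9, entered the same fit and were used to see where G5 differed from its sister clones. Of 48795 genes in the count table, 14704 passed the filter on low counts and were tested.

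G5 is 1 clone, set against a line that the labels call parental and give no clone name, so that growth from a clone and the loss of Aebp1 cannot be told apart in this comparison. G5 was also taken at a passage range shifted by 1 from that of the parental line. Whether the passages of a line were kept as separate cultures is not stated, and the p-values then cover the spread between libraries, which may be technical. The 6 libraries held between 22088714 and 28207122 counts. Within the parental line passage 7 stood apart: on the second axis of a multidimensional scaling of the libraries it lay at −2.26, and passages 6 and 8 at −1.26 and −1.41. Among the genes named by rule, changes reported here that moved over 1.5-fold without that library are given with and without it. Smaller shifts are given for only some genes and lists.

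AEBP1, also known as ACLP, is a secreted protein with a collagen-binding discoidin domain and a carboxypeptidase-like domain that lacks catalytic activity. It associates with collagen fibres in connective tissue, and loss-of-function variants in people cause a form of Ehlers-Danlos syndrome with fragile skin and lax joints. In fibroblasts and adipocyte precursors it has been tied to myofibroblast differentiation and to the restraint of adipogenesis.

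The targeted gene was examined first. Aebp1 (ENSMUSG00000020473) lies at chr11:5861947-5872088 on the plus strand of GRCm38. It was measured at 613, 467 and 579 CPM (counts scaled to a common library size) in parental passages 6, 7 and 8 and at 138, 124 and 123 CPM in G5 passages 7, 8 and 9. The groups did not overlap, as at 1915 of the 1926 genes called. G5 held 23.2% of the parental mean (log2 fold change −2.11, SE 0.12, adjusted p = 9.24e-06, edgeR). The transcript was thus still present, and which position was edited is not stated in the labels. The level in G5 was not called different from that in F5 (193 ± 19.9 CPM, mean and SD, n = 3, adjusted p = 0.0969) or H7 (147 ± 14.4 CPM, n = 3, adjusted p = 0.298). Of the related carboxypeptidase genes, Cpxm1, which encodes another inactive member of the family, fell from 0.788 ± 0.22 CPM to 0.227 ± 0.0511 (n = 3 each, log2 fold change −1.78, SE 0.34, adjusted p = 0.00633). Without the second passage of both lines, its adjusted p was 0.054.

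The libraries carried the RNA of fibroblasts. The 13 fibroblast markers summed to between 24957.9 and 28724.1 CPM in the parental libraries and between 23221.1 and 25103.8 CPM in G5. Of the 12 that were tested, 5 fell (Col1a1, Col3a1, P4hb, Dcn and Lum), where 6.56% of all genes were called lower, and the median was −0.47. edgeR called 0 of them higher, as did DESeq2, and 0 were higher at an unadjusted p under 0.05. Epithelial and endothelial markers were at or near 0. The 12 epithelial markers summed to at most 1.23 CPM in the parental libraries and 1.63 CPM in G5, with 6 of them at 0 counts in all 6 libraries, and 8 endothelial markers summed to at most 0.626 and 0.757 CPM, with 4 at 0. The 9 macrophage and leukocyte markers summed to 4.74 to 6.55 CPM in the parental line and 5.73 to 7.93 CPM in G5. The 12 muscle, neural and Schwann cell markers summed to 24.8 to 30.2 CPM and 18.5 to 23.2 CPM. In that last list Snap25, a vesicle fusion protein, fell from 11.8 ± 1.23 CPM to 1.27 ± 0.485 (n = 3 each, log2 fold change −3.23, SE 0.35, adjusted p = 0.000251).

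**Figure D1:**
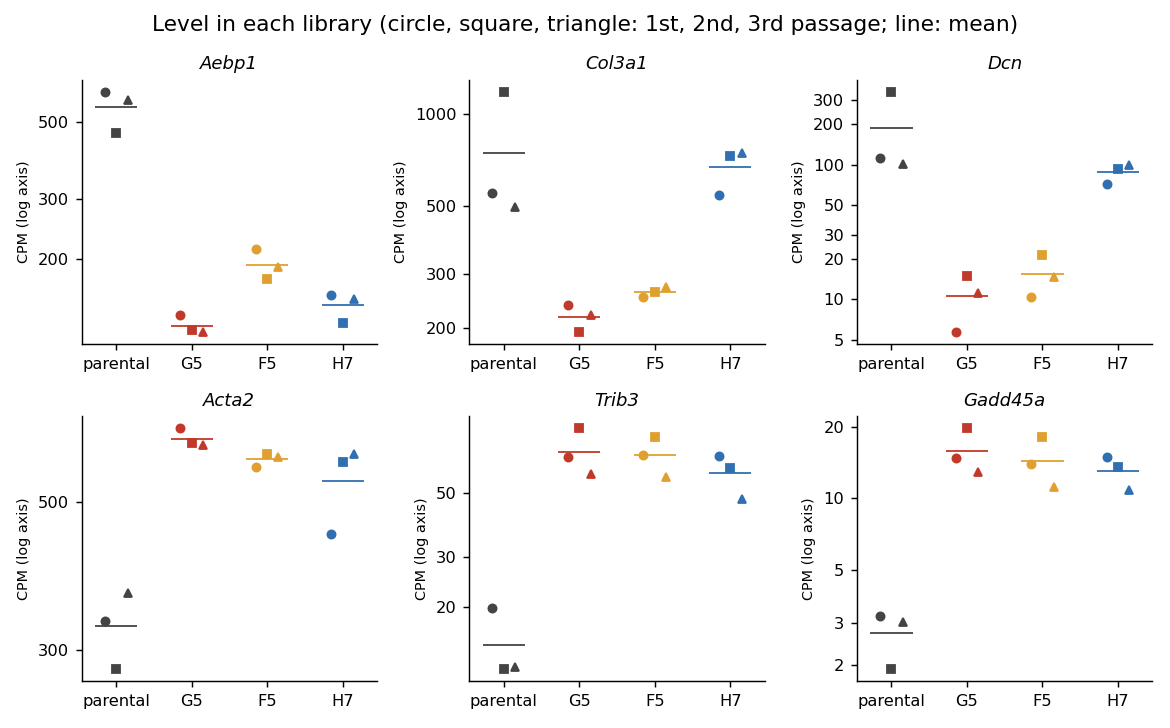
Level of 6 genes in each of the 12 libraries, in CPM on a log axis that differs between panels, for the parental line, G5, F5 and H7. Each symbol is a library, in the order of passages, and each line is the mean of 3. G5 lies below all parental libraries at Aebp1, Col3a1 and Dcn and above them at Acta2, Trib3 and Gadd45a.

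In G5, 961 genes rose and 965 fell against the parental line, 6.54% and 6.56% of the genes tested. The counts of the gene lists below are to be read against these shares. Called changes had a median size of 0.63 (log2), and the median over all genes tested was −0.01. A change of 2-fold or more was found in 255 of the higher and 356 of the lower genes, and one of 8-fold or more in 43 and 124. On the deposited TPM values (transcript abundance scaled by length and depth), limma called 1173 genes higher and 582 lower with log2(TPM + 1), so that 66.8% of the calls were higher ones against 49.9% on counts, while the median of all genes moved to 0.04. With log2(TPM + 0.1) the calls were 1190 and 605, or 66.3% higher. Without G5 passage 8 the counts were 570 higher and 713 lower, without G5 passage 7 they were 632 and 496, and without G5 passage 9 they were 652 and 562.

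**Figure D2:**
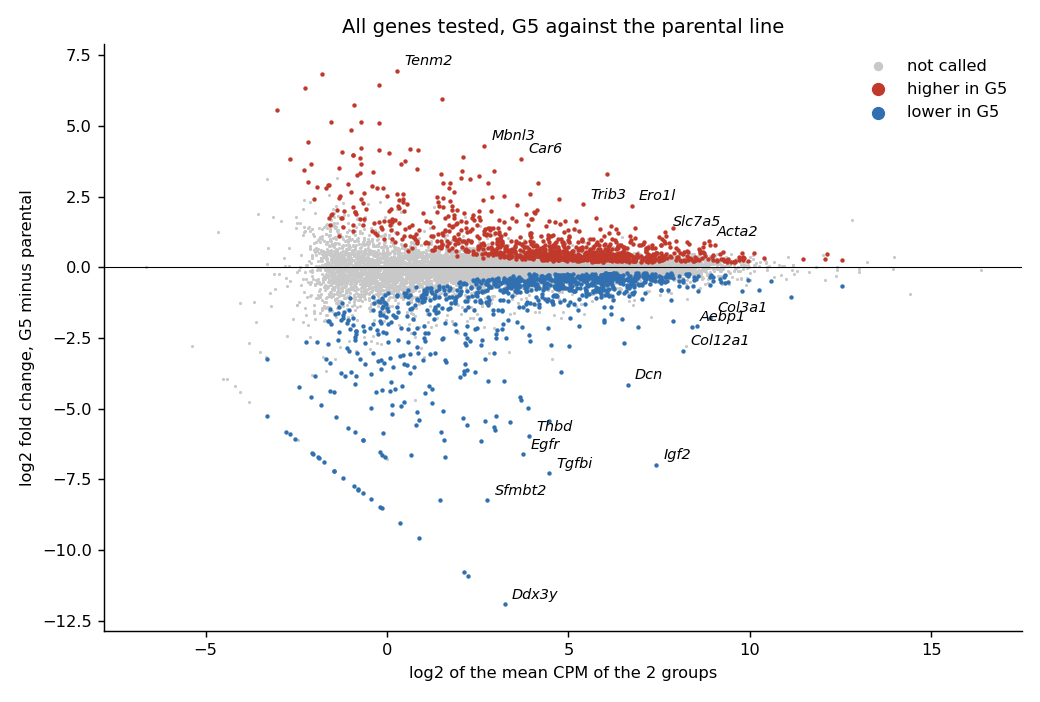
Log2 fold change of G5 against the parental line for each of the 14704 genes tested, against the log2 of the mean CPM of the 2 groups. Red points are the 961 genes called higher and blue points the 965 called lower. For genes with 0 counts in a group, such as Ddx3y, the fitted value depends on the prior count and is no estimate of size.

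The genes with the largest rises were mostly near silent in the parental line. Mbnl3, an RNA-binding protein of the muscleblind family, was measured at 0.626, 0.474 and 0.747 CPM in the parental libraries and at 12.7, 10.8 and 12.9 CPM in G5 (log2 fold change 4.30, SE 0.21, adjusted p = 9.24e-06). Hecw1, an E3 ubiquitin ligase, went from 0.403, 0.710 and 0.439 CPM to 8.17, 9.25 and 6.34 CPM (log2 fold change 3.91, SE 0.32, adjusted p = 4.2e-05). For both, every G5 library lay above every parental library, which the rule that named the largest changes required. The groups did not overlap at 4129 of the 14704 genes tested and at 1915 of the 1926 called. Groups that do not overlap thus add little to a call, at these genes or at those below. Apob, the structural protein of low-density lipoprotein, rose by 3.66 (SE 0.46), Cyp4f40, a cytochrome P450, by 4.04 (SE 0.49), and Fhl1, a LIM-domain protein of muscle, by 3.42 (SE 0.36) on the log2 scale. Tenm2, a teneurin adhesion protein, had 1 count in the parental line and 171 in G5, a ratio of 159.7 with a 95% counting interval of 28.3 to 6345. That ratio was 103 without G5 passage 8 and 102 without parental passage 7, and without parental passage 6, which held the 1 count, Tenm2 was at least 36.3-fold higher.

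G5 passage 8 was the highest G5 library for several of these genes. Sspo, which encodes a secreted protein of the brain, stood at 2.40, 11.9 and 2.51 CPM in G5 against at most 0.158 CPM in the parental libraries, and its log2 fold change of 5.95 moved to 4.77 without G5 passage 8 and to 6.82 without parental passage 7. Car6, a secreted carbonic anhydrase, stood at 12.7, 42.3 and 17.8 CPM against 2.33, 1.78 and 0.967, with a log2 fold change of 3.84 that moved to 3.16 without G5 passage 8. Atp2a3, a calcium pump, Gdap1l1, a protein of the ganglioside-induced differentiation family, and Taf7l, a testis transcription factor, also rose, by 3.75, 3.47 and 4.16. Without parental passage 6 these were 4.56, 4.23 and 4.96.

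Among the largest falls were 3 genes of the Y chromosome with 0 counts in all G5 libraries. Ddx3y, an RNA helicase, stood at 20.2, 17.5 and 18.8 CPM in the parental line and was at least 472-fold lower in G5, against a limit of 3 counts over the group. Kdm5d, a histone demethylase, was at least 236-fold lower and Eif2s3y, a translation initiation factor, at least 216-fold lower. Uty, the remaining tested gene of the list, fell from 9.12, 9.12 and 8.79 CPM to 0.106, 0.136 and 0.319, a change of −5.56, or −6.18 without G5 passage 9. These falls were not particular to G5. All 4 tested Y-linked genes were also called lower in F5 and in H7 than in the same parental libraries. Direct tests of G5 against F5 and against H7 called 0 of the 4. Summed over its libraries, F5 kept 20 counts of Ddx3y, and H7 kept 0. The 7 X-linked homologs gave 0 calls by edgeR and by DESeq2, with 1 higher at an unadjusted p under 0.05. Such limits scale with the depth of the group at 0, and that of Ddx3y was 295-fold without G5 passage 7. These limits, and the counting intervals, cover counting error only.

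Of the receptor tyrosine kinases and ligands of fibroblasts, 5 of 32 rose and 5 fell, against 6.54% and 6.56% of all genes. The median was −0.07, and 10 were lower without parental passage 6. Several of the largest falls of all were at single growth factor and signalling genes. Igf2, a fetal growth factor, was measured at 126, 796 and 100.3 CPM in the parental libraries and at 0.707, 5.94 and 1.75 CPM in G5, so that the groups did not overlap although the second passage was highest in both (log2 fold change −6.98, SE 1.13, adjusted p = 0.00268). Without parental passage 7 the change was −5.40, and without G5 passage 8 it was −8.13. The neighbouring imprinted RNA H19, picked after its values were seen, stood at 25.5, 94.8 and 9.45 CPM against 0.530, 2.09 and 0.478, a change of −5.44, or −4.13 without parental passage 7 and −6.41 without G5 passage 8. Egfr, the epidermal growth factor receptor, stood at 9.97, 57.7 and 11.8 CPM against 0.212, 0.363 and 0.239, a change of −6.61, or −5.33 without parental passage 7. Sfrp2, a secreted Wnt antagonist, stood at 28.6 ± 32.1 CPM (n = 3, passage 7 at 65.6) against 0.636, 1.45 and 0.677, a change of −4.98, or −3.47 without parental passage 7. B4galnt4, a glycosyltransferase, fell from 5.97 ± 0.423 to 0.052 ± 0.0165 CPM, and Mccc2, a subunit of the leucine-degrading carboxylase, from 221 to 2 counts, a ratio of 118 with a counting interval of 32.4 to 983. Scn7a, an atypical sodium channel, had 272 counts in the parental line and 0 in G5, and was at least 97.1-fold lower, or at least 31.2-fold without parental passage 7, which held most of the counts. Without G5 passage 7 the limit was 60.7-fold.

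Among the 45 gene lists, that of ATF4 and the amino acid response had the largest share of higher calls. The lists and their members were chosen with earlier results of these data known, so such shares may in part restate that choice. ATF4 is a transcription factor whose translation rises when the initiation factor eIF2 is phosphorylated, as in amino acid shortage or stress of the endoplasmic reticulum, and its targets import and make amino acids, charge transfer RNAs and curb translation. In G5, 36 of 44 tested members rose, against 6.54% of all genes, and edgeR called 0 lower, with 1 lower at an unadjusted p under 0.05 and 0 by DESeq2. The median of the list was 0.85 on the log2 scale, and it stayed there with Gdf15, which had 0 parental counts, set at its bound. Without parental passage 7 the median was 0.705. The count of higher members was between 29 and 37 with each of the 6 libraries left out in turn, 33 without parental passage 7 and 30 without the second passage of both lines. In the libraries of F5 and H7, compared with the same parental libraries, 36 and 38 members were called higher. The share of all genes called in these comparisons of F5 and H7 was not counted, so these counts have no background beside them. Compared directly with H7, G5 was higher at 4 of the 44 and lower at 1, where 8.88% and 8.51% of all genes were called.

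Atf4 itself was measured at 321, 279 and 312 CPM in the parental libraries and at 561, 592 and 504 CPM in G5 (log2 fold change 0.86, SE 0.08, adjusted p = 0.000105). Trib3, a pseudokinase induced by ATF4, went from 19.9, 12.2 and 12.4 CPM to 66.3, 83.7 and 57.9 (2.23, SE 0.22, adjusted p = 0.000132). The groups did not overlap at either gene. Among amino acid transporters, Slc7a11, the cystine carrier, went from 7.06 ± 3.89 CPM (n = 3, passage 7 at 3.28) to 29.4, 27.4 and 28.1 (2.01, SE 0.32, adjusted p = 0.00224), Slc7a5, the large neutral amino acid carrier, from 120.1 ± 36.7 to 288 ± 36, and Slc6a9, a glycine carrier, from 63.3 ± 12.1 to 167 ± 15.8 CPM (n = 3 each). Parental passage 7 was the lowest library for all 3 carriers. Of the enzymes, Asns, asparagine synthetase, rose by 1.09 (SE 0.19), Pck2, the mitochondrial form of phosphoenolpyruvate carboxykinase, by 1.12 (SE 0.15), Aldh1l2 and Mthfd2, of mitochondrial folate metabolism, by 1.40 (SE 0.15) and 1.03 (SE 0.21), and Chac1, which degrades glutathione, by 1.65 (SE 0.19). Vldlr, the very low density lipoprotein receptor, rose by 2.22 (SE 0.19), whereas it stood at 2.96 ± 0.558 CPM in H7 against 4.24 ± 0.863 in the parental line and 19.7 ± 3.24 in G5.

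**Figure D3:**
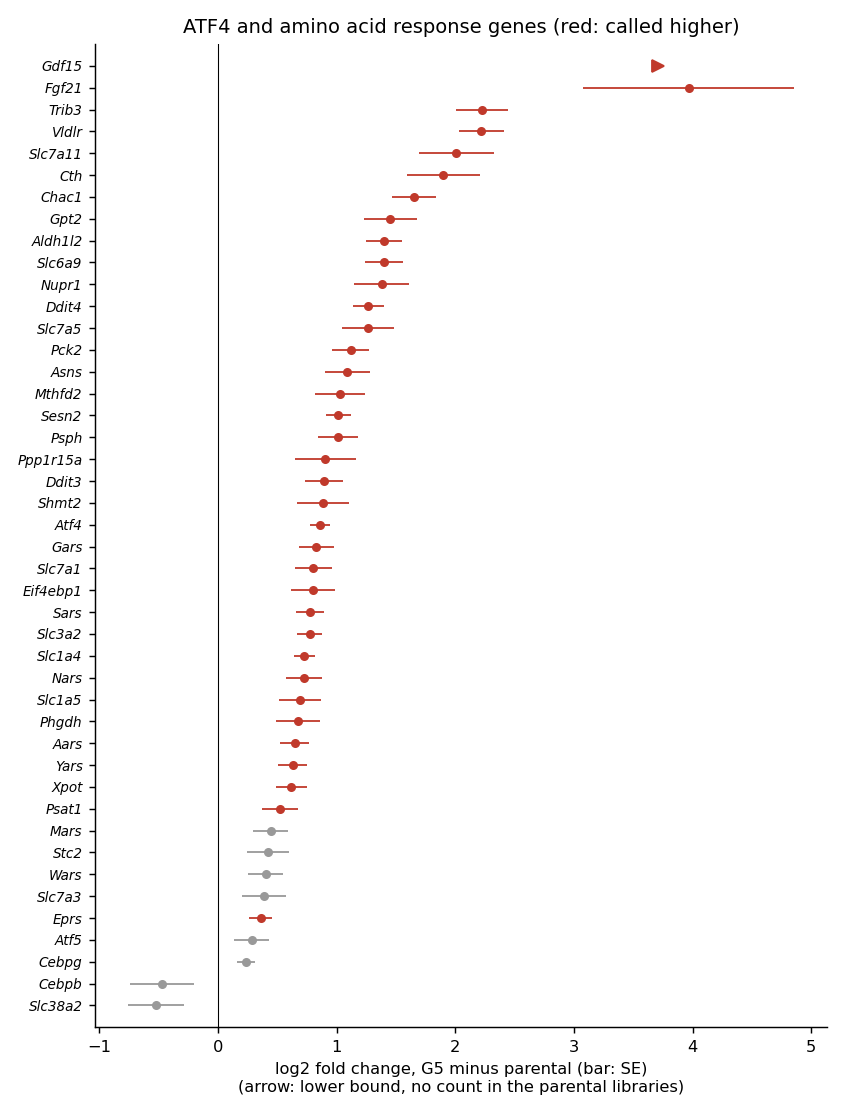
Log2 fold change of G5 against the parental line for the 44 tested genes of the ATF4 and amino acid response list, with its standard error. Red points were called higher, grey points were not called, and the arrow for Gdf15 is a lower bound because the gene had 0 parental counts. Slc38a2 and Cebpb are the only members below 0, and neither was called.

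The secreted stress factor Gdf15 had 0 counts in the parental line and 42 in G5, and was at least 13.1-fold higher; it and Fgf21, another secreted factor, were picked after their values were seen. Fgf21 stood at 0.0447, 0.118 and 0 CPM in the parental libraries and at 0.707, 1.68 and 0.518 in G5 (log2 fold change 3.97, SE 0.89, adjusted p = 0.0142), a change that was 3.33 without G5 passage 8 and 5.15 without parental passage 7. The members not called included Slc38a2, an amino acid carrier (−0.52, adjusted p = 0.175), and Cebpb, a partner of ATF4 (−0.47, adjusted p = 0.285). The chaperones of the endoplasmic reticulum, which report on the other branches of the unfolded protein response, did not move in 1 direction: 4 of 25 rose and 3 fell, with a median of −0.16. Hspa5, the main chaperone of the list, stood at 421 ± 85.1 CPM in the parental line and 373 ± 8.63 in G5 (adjusted p = 0.396). The 4 that rose were Ero1l, Ern1, Herpud1 and Edem1. Without parental passage 7, 6 members of the chaperone list were called lower, and without G5 passage 8, G5 passage 9 or parental passage 8, 1 was.

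Promoters of the list were read for the C/EBP-ATF response element, the composite site at which ATF4 pairs with C/EBP proteins, as the letters TGATGNAA on either strand in the 250 bases before the start. The RefSeq promoter table (GRCm38.p6) held 36 of the 44 tested members, and 9 of them, or 25%, had a match, against 3.91% of all 27025 genes in the table and 2.37% of the 9923 tested genes in it. All 9 genes with a match were called higher in G5, and so were 21 of the 27 members in the table without one. The other matches were at Vldlr and Fgf21, which rose by 2.22 and 3.97, more than the 5 genes shown, and at Aars and Gars. A match is a description of the letters and not evidence of binding. The list was drawn up as genes of the ATF4 response, so an excess of this site over all genes may follow from that choice. It says nothing about ATF4 in G5. The windows of 5 of the 9 are shown as examples of the match in genes of amino acid supply and the stress response, each 5′ to 3′ on the strand of the gene with the match in capitals (TTNCATCA is the match on the opposite strand). Slc7a11 holds a match on each strand, at chr3:50443617-50443715 (minus). The others lie at chr2:119351013-119351092 (plus, Chac1), chr6:7693210-7693268 (minus, Asns), chr7:126625537-126625616 (minus, Nupr1) and chr14:55540127-55540206 (plus, Pck2).
Slc7a11: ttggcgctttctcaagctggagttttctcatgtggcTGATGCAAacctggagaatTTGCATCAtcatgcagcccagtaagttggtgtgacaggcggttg
Chac1: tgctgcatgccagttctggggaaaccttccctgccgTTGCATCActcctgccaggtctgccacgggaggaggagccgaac
Asns: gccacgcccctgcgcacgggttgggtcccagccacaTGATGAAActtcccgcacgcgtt
Nupr1: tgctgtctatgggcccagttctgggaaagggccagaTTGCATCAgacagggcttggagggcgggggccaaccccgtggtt
Pck2: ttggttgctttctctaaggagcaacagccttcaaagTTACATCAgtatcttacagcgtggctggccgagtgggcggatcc

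Targets of p53, the tumour suppressor that arrests damaged cells, were the list with the next largest share of higher calls. The same limit on the choice of lists applies. Of 33 tested members, 14 rose and edgeR called 0 lower (3 lower at an unadjusted p under 0.05, 0 by DESeq2), with a median of 0.48, or 0.31 without parental passage 7. With each library left out in turn, between 11 and 16 were called higher. The rise was not particular to G5. Against the same parental libraries, 15 members were called higher and 0 lower in F5, and 15 and 2 in H7, with medians of 0.50 and 0.44. The share of all genes called in those comparisons was not counted. Gadd45a, a growth arrest gene, went from 3.22, 1.93 and 3.03 CPM to 14.7, 19.6 and 13.0 (log2 fold change 2.53, SE 0.25, adjusted p = 0.000131). Cdkn1a, the cell-cycle inhibitor p21, went from 56.8, 26.0 and 52.1 CPM to 131, 92.6 and 118 (1.34, SE 0.25, adjusted p = 0.0054). It was picked after its values were seen, and the rule also named it from the cell-cycle list. The groups did not overlap at either gene, and parental passage 7 was the lowest library at both. Plk2, a stress-induced kinase, went from 171 ± 10.9 to 325 ± 10.4 CPM, and Ccng1, cyclin G1, from 116 ± 24.7 to 242 ± 46.7 (n = 3 each). Sesn2 and Ddit4, which curb mTORC1, belong to the ATF4 list as well and rose by 1.01 (SE 0.11) and 1.27 (SE 0.13). Trp53, which encodes p53, was not called (0.09, SE 0.09, adjusted p = 0.587).

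Genes of DNA replication and mitosis were not called. Of 30 replication genes and 30 mitosis genes, edgeR called 0 and DESeq2 called 0, and 0 had an unadjusted p under 0.05, with medians of −0.01 and −0.03. Among the cyclins and inhibitors of the cell cycle, 3 of 12 rose, namely Cdkn1a, Cdk6 and Ccnd2, which encodes cyclin D2 and went from 314 ± 17.4 to 516 ± 36.4 CPM (n = 3 each). Ccnd3 fell by 0.35, with an adjusted p of 0.0834, 0.0581 and 0.1 without G5 passages 7, 8 and 9. Of the immediate early genes and ERK feedback genes, 2 of 29 rose (1 without any of the 3 G5 libraries or without parental passage 8) and 5 fell (2 without G5 passage 9). Fos went from 14.3, 15.0 and 7.91 CPM to 6.15, 3.35 and 3.55 (log2 fold change −1.50, SE 0.31, adjusted p = 0.00882), or to an adjusted p of 0.0661 without the second passage of both lines.

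Of the targets of hypoxia-inducible factors and the glycolytic enzymes, 13 of 35 rose and 1 fell, against 6.54% and 6.56% of all genes. The median was 0.51, and DESeq2 called 21 higher. Ero1l, an oxidase that drives disulphide formation in the endoplasmic reticulum, went from 41.6, 37.2 and 37.2 CPM to 152, 243 and 131 (log2 fold change 2.18, SE 0.27, adjusted p = 0.000583). Bnip3, a mitophagy receptor, rose by 0.99 (SE 0.10), Egln3, an oxygen-sensing prolyl hydroxylase, by 1.20 (SE 0.16), and Tpi1, triosephosphate isomerase, by 0.55 (SE 0.07). Against the same parental libraries, 21 members were called higher and 1 lower in F5, and 14 and 1 in H7, with no share of all genes counted. Compared with H7, G5 was higher at 8 and lower at 3 of the 35, where 8.88% and 8.51% of all genes were called. Hif1a was not called (0.29, SE 0.17, adjusted p = 0.288). Of 36 cytosolic ribosomal protein genes, 10 rose by 0.20 to 0.69 and edgeR called 0 lower (0 at an unadjusted p under 0.05, 0 by DESeq2), and DESeq2 called 18 higher. That count was 4, 3 and 5 without G5 passages 7, 8 and 9, 17 without parental passage 6 and 6 without parental passage 7.

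**Figure D4:**
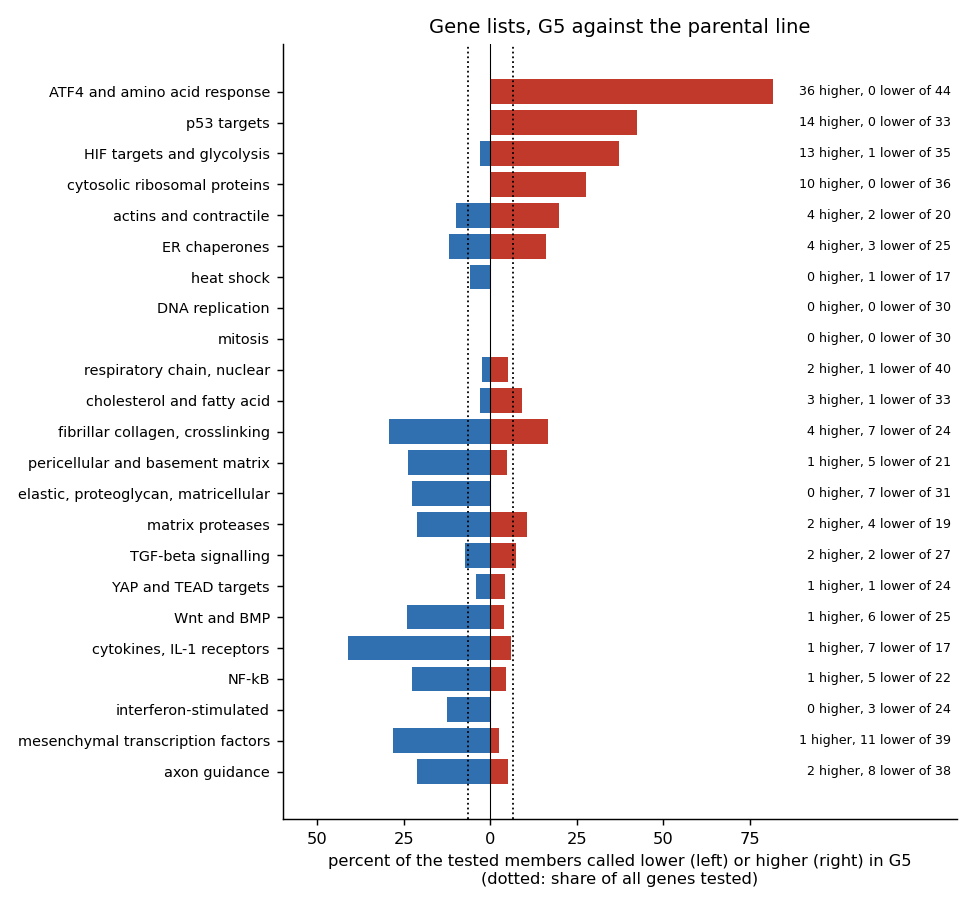
Share of the tested members of 23 gene lists called higher (right, red) or lower (left, blue) in G5 than in the parental line, in percent, with the counts beside the bars. Dotted lines are the shares of all genes tested, 6.54% higher and 6.56% lower. The list of ATF4 and the amino acid response extends farthest to the right. The lists were chosen with earlier results of these data known.

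Matrix genes were more often called lower than higher, where 6.56% and 6.54% of all genes were. Of the elastic fibre, proteoglycan and matricellular genes, 7 of 31 fell and edgeR called 0 higher (2 higher at an unadjusted p under 0.05, 0 by DESeq2), with a median of −0.30. The count of lower members was 4 without G5 passage 8 and 4 without G5 passage 9. Eln, which encodes elastin, had 387 counts in the parental line and 1 in G5, a ratio of 414 with a counting interval of 73.9 to 16408. It was at least 86.3-fold lower without G5 passage 7, which held that count, and the ratio was 277 without G5 passage 9. Dcn, the proteoglycan decorin that coats collagen fibrils, went from 112, 348 and 101 CPM to 5.69, 14.9 and 11.1 (log2 fold change −4.16, SE 0.53, adjusted p = 0.000648), or −3.35 without parental passage 7. Lum, the related lumican, went from 34.5, 83.1 and 36.9 CPM to 2.12, 5.89 and 3.95 (−3.71, SE 0.43, adjusted p = 0.000396). Its change lay between −4.10 and −3.19 with each library left out in turn. The groups did not overlap at either proteoglycan, as at 1915 of the 1926 genes called. In bulk RNA, fewer cells of a kind and less RNA per cell cannot be told apart.

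Of the fibrillar collagens and their processing and crosslinking enzymes, 4 of 24 rose and 7 fell, against 6.54% and 6.56% of all genes. The median was −0.25. The lower count was 4 without G5 passage 9, and the higher count was 2 without G5 passage 7, G5 passage 8 or parental passage 8. Col11a1, a fibril-nucleating chain, went from 14.4, 18.2 and 17.0 CPM to 2.72, 2.86 and 3.23 (log2 fold change −2.50, SE 0.15, adjusted p = 9.24e-06). Col3a1, the main chain of reticular fibres, went from 553, 1181 and 495 CPM to 236, 193 and 219 (−1.78, SE 0.28, adjusted p = 0.00204). Col27a1 fell by 1.80 (SE 0.18) on the log2 scale. The chains of collagen I differed: Col1a1 stood at 7323 ± 421 CPM in the parental line and 4673 ± 686 in G5 (−0.65, SE 0.14, adjusted p = 0.0121), and Col1a2 at 5574 ± 658 and 5212 ± 197 (−0.10, SE 0.09, adjusted p = 0.539), though the difference between the chains was not tested. Those that rose were Loxl4, a lysyl oxidase, P4ha1 and P4ha2, prolyl hydroxylase subunits, and Plod2, the lysyl hydroxylase of collagen telopeptides, which went from 17.9, 12.9 and 12.8 CPM to 34.3, 30.1 and 28.9 (1.10, SE 0.14, adjusted p = 0.000615).

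In the pericellular and basement membrane matrix 5 of 21 genes fell and 1 rose, against 6.56% and 6.54% of all genes, with a median of −0.33. All 3 chains of collagen VI tested in this list fell, Col6a1 by 0.81 (SE 0.10), Col6a2 by 0.86 (SE 0.10) and Col6a3 by 0.47 (SE 0.06). Col12a1, a fibril-associated collagen, went from 159, 999 and 359.6 CPM to 62.0, 63.4 and 71.3 (log2 fold change −2.95, SE 0.57, adjusted p = 0.00682), or −1.98 without parental passage 7. Lama4, a laminin chain of vessel walls, went from 118, 334 and 138 CPM to 31.3, 62.3 and 42.3 (−2.12, SE 0.40, adjusted p = 0.00603), or −1.50 without it. Svep1, a cell adhesion protein, and Synpo, an actin-binding protein, were called lower at −2.08 and −1.14, and neither call held without parental passage 7 (−0.92, adjusted p = 0.176, and −0.62, adjusted p = 0.11). Nor did either hold without G5 passage 7 (adjusted p = 0.153 and 0.144), passage 8 (0.0648 and 0.0655) or passage 9 (0.132 and 0.104).

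Among the contractile genes the actins Acta1, Acta2 and Actg2 rose, as did Des. The Des call, at 2.03, was lost without G5 passage 8, parental passage 7 or parental passage 8. Cnn1, which encodes calponin 1, was called lower at −1.43, a call lost without G5 passage 8 or 9. Of 20 tested, 4 rose and 2 fell, against 6.54% and 6.56% of all genes, with a median of 0.12. The count of lower ones was 0 without G5 passage 8 or 9 and 1 without G5 passage 7 or parental passage 6. Acta2, the smooth-muscle actin of myofibroblasts, went from 331, 281 and 365 CPM to 644, 611 and 608 (log2 fold change 0.93, SE 0.11, adjusted p = 0.000495), and Actg2, the enteric actin, from 2.95, 2.09 and 3.65 to 9.51, 7.25 and 7.65 (1.49, SE 0.22, adjusted p = 0.00152). Every G5 library lay above every parental library at both. Of the TGF-beta pathway 2 of 27 genes rose and 2 fell, and of the YAP and TEAD targets 1 of 24 rose and 1 fell, shares near or below those of all genes. The TGF-beta calls were 0 higher without G5 passage 8 or parental passage 8 and 0 lower without G5 passage 9 or parental passage 7. Of the Wnt and BMP ligands, antagonists and targets, 1 of 25 rose and 6 fell, with a median of −0.22. They included Sfrp2 and Fzd1, a Wnt receptor that went from 75.6, 167 and 86.3 CPM to 29.0, 40.2 and 34.9 (−1.66, SE 0.28, adjusted p = 0.00338). The Fzd1 change lay between −1.87 and −1.22 with each library left out in turn.

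Of the cytokines, chemokines and their receptors, 1 of 17 rose and 7 fell, against 6.54% and 6.56% of all genes. The median was −0.89, or −0.64 without parental passage 7. Without G5 passage 7 the lower count was 4. The monocyte chemokine Ccl2 went from 3.13, 3.91 and 5.36 CPM to 1.17, 1.86 and 1.55 (log2 fold change −1.44, SE 0.29, adjusted p = 0.00778), and Ccl7 from 2.50, 4.70 and 2.90 to 0.707, 1.22 and 1.28 (−1.67, SE 0.33, adjusted p = 0.00739). Has2, a hyaluronan synthase in the same list, fell by 1.30 (SE 0.23), and Ccl9 rose by 2.59 (SE 0.30). In H7, Ccl2 stood at 10.2 ± 2.11 CPM and Ccl7 at 10.5 ± 2.76, above the G5 levels of 1.53 ± 0.347 and 1.07 ± 0.314 (n = 3 each). Subunits, inhibitors and targets of NF-κB numbered 22, of which 1 rose and 5 fell, or 3 without G5 passage 7 and 2 without G5 passage 9. Of the interferon-stimulated genes 3 of 24 fell, or 12.5% against 6.56% of all genes. That count was 0 without G5 passage 7 or 9, 1 without G5 passage 8 or parental passage 7, and 6 without parental passage 6.

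Transcription factors of mesenchymal identity fell in 11 of 39 cases and rose in 1, against 6.56% and 6.54% of all genes, with a median of −0.35. The lower count was 7 without G5 passage 7. Nr2f1, an orphan nuclear receptor, went from 97.2, 89.3 and 105 CPM to 44.3, 49.3 and 51.9 (SE of the log2 fold change 0.11, adjusted p = 0.000198), and Prrx2, a paired-class homeobox factor, from 78.2, 65.8 and 96.7 to 40.9, 35.2 and 39.3 (−1.06, SE 0.14, adjusted p = 0.000778). Tbx3 fell by 0.98 (SE 0.17). Of the axon guidance genes 2 of 38 rose and 8 fell, or 5 without G5 passage 8 and 5 without G5 passage 9, among them Ntn1, which encodes netrin 1 and went from 7.38, 12.7 and 5.01 CPM to 0.0707, 0.499 and 0.0797 (−5.33, SE 0.59, adjusted p = 0.000274). Without G5 passage 8 that change was −6.72.

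G5 was close to F5 and far from H7. Against F5, edgeR called 10 genes higher and 28 lower in G5, or 0.068% and 0.19% of the genes tested (0.258% in all), and against H7 it called 1305 higher and 1252 lower, or 17.4%. Of the 38 genes called against F5, 30 were also called against the parental line. Genes called in the same direction against the parental line, F5 and H7 numbered 3 higher and 13 lower. The higher ones were AI662270, an RNA without a described function, Ica1, an islet autoantigen gene, and Sema3a, a secreted guidance cue. The lower ones included Auts2, Sfmbt2, Tgfbi, Osbpl6, Thbd, Ercc6l2, Ptprj, Cd82, Wdfy4, Hoxc8, Zfp985 and Rhox5, of which the first 6 were named by rule. The others were picked after their values were seen, though the rule also named Hoxc8 from the HOX list.

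Tgfbi (chr13:56609523-56639562, plus), a matrix protein induced by TGF-beta, was measured at 33.1, 65.0 and 34.4 CPM in the parental libraries and at 0.0707, 0.408 and 0.399 CPM in G5 (log2 fold change −7.28, SE 0.49, adjusted p = 1.08e-05). It stood at 6.02 ± 1.66 CPM in F5 and 50.3 ± 11.8 in H7. Thbd (chr2:148404466-148408188, minus), the thrombin receptor thrombomodulin, went from 26.2, 35.6 and 26.6 CPM to 0.354, 0.680 and 0.399 (−5.97, SE 0.35, adjusted p = 9.24e-06), with 5.57 ± 1.95 CPM in F5 and 32.2 ± 8.19 in H7. Sfmbt2 (chr2:10370510-10595253, plus), an imprinted Polycomb-group gene, had 964 counts in the parental line and 3 in G5, a ratio of 344 with a counting interval of 117 to 1671. The ratio was 215 without G5 passage 7, and without G5 passage 8, which held all 3 counts, the gene was at least 243-fold lower. It stood at 4.67 ± 1.57 CPM in F5 against 13.5 ± 3.17 in the parental line. The 3 genes thus lay lowest in G5, with F5 between G5 and the parental line.

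Auts2, a neurodevelopmental gene, had 180 counts in the parental line and 0 in G5, and was at least 64.2-fold lower, while F5 stood at 1.92 ± 0.899 and the parental line at 2.56 ± 0.644 CPM. Osbpl6, an oxysterol-binding protein, went from 7.11, 5.09 and 4.26 CPM to 0.106, 0.136 and 0.0399 (log2 fold change −5.81, SE 0.38, adjusted p = 9.24e-06), and Ercc6l2, a helicase of the DNA damage response, from 5.58 ± 1.26 to 0.163 ± 0.0566 (−5.09, SE 0.35, adjusted p = 1.25e-05). Cd82, a tetraspanin, stood at 10.4 ± 3.49 CPM in the parental line, 1.55 ± 0.491 in G5 and 9.40 ± 1.43 in F5. The 13 lower genes were chosen for lying below F5 and H7, which fixes the order of G5 against both clones. The F5 mean lay below the parental mean for 12 of them, and the H7 mean lay above it for 11. The mean of Ica1 lay above the parental one in G5 and below it in F5 and H7: 0.412 ± 0.0238 CPM in the parental line, 1.74 ± 0.355 in G5, 0.0851 ± 0.0611 in F5 and 0.0501 ± 0.056 in H7. F5 and H7 held only 7 and 4 counts, and the gene was chosen for lying above both. No test of F5 or H7 against the parental line is given for it. Sema3a rose from 73.2, 60.9 and 68.1 CPM to 110.4, 113 and 113 in G5 (0.74, SE 0.08, adjusted p = 0.000309), against 66.3 ± 4.55 in F5 and 91.7 ± 6.56 in H7.

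**Figure D5:**
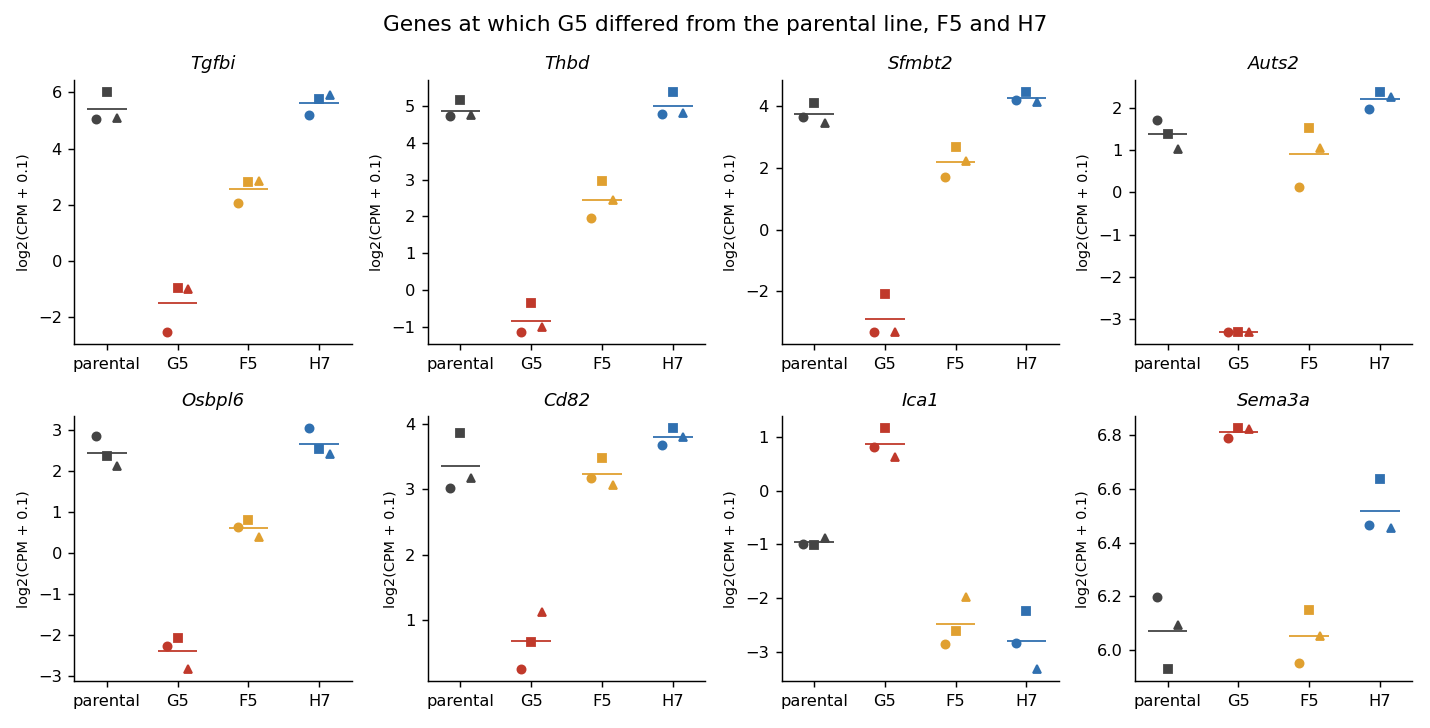
Level of 8 genes at which G5 was called against the parental line, F5 and H7 alike, as log2(CPM + 0.1) in each of the 12 libraries, with the mean of 3 as a line. In G5 the first 6 genes lie lowest of the 4 lines and Ica1 and Sema3a lie highest.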

How the data were processed

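Per the labels' protocols, stranded total-RNA libraries were made after depletion of ribosomal RNA and sequenced from both ends. The authors deposited expected counts per Ensembl gene, not normalised, and TPM for the same genes. Of the count values above 0.5, 86.9% were whole to within 0.01, and all were rounded before testing. The genome build was GRCm38, per the submitters' processing notes. Neither labels nor headers state the aligner, the counter or its use of strand, so antisense, overlapping and near-identical genes are uncertain. Symbols and coordinates come from GENCODE release M21, which matched 48435 identifiers.

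Genes were filtered with filterByExpr over the 4 groups and tested with edgeR 4.0.16 (quasi-likelihood F-test, TMM factors, group as the only term, all 12 libraries, 8 residual degrees of freedom, Benjamini-Hochberg adjusted p under 0.05) in R 4.3.3. CPM use the TMM factors. The biological coefficient of variation was 15.5%. Alternatives used DESeq2 1.42.0 and limma 3.58.1. In simulated counts for G5 against the parental line (14565 genes), the test found 22 of 67 genes set at 1.5-fold, 54 of 67 set at 2-fold and 61 of 66 set at 4-fold, and made 5 false calls. The simulation gave all genes the same spread and drew the libraries independently. These data hold genes of unequal spread, an outlying passage and correlated deviations, so its figures do not carry over directly.

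The rule named Aebp1, the 12 highest and 12 lowest changes at a mean of at least 1 CPM with groups that do not overlap, the 8 of each at 100.0 CPM or more, up to 6 of each direction that differed from all other lines, up to 4 members of each of 45 gene lists by adjusted p, and the Y-linked genes, leaving out predicted-gene names; some genes it names are not reported here. Members, lists and rule were chosen with earlier results of these data known.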

Additional observations from a re-analysis of the deposited data

Results flagged for a closer look

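These genes, named above for G5 against the parental line, were called different between G5 and another knockout clone by edgeR's test of that difference (adjusted p between 4.64e-07 and 0.0325). The first 9 were named for being called against both clones, so that their differences restate how they were chosen. AI662270 was higher in G5 by 2.32 on the log2 scale than in F5 and by 2.53 than in H7, Ica1 by 4.30 and 4.96, and Sema3a by 0.76 and 0.29. For Ica1 these rest on 7 counts in F5 and 4 in H7. Tgfbi was lower in G5, at −4.41 against F5 and −7.46 against H7, as were Thbd at −3.57 and −6.09, Ercc6l2 at −3.32 and −6.12, and Osbpl6 at −3.88 and −6.02. Auts2 was at least 49.7-fold lower than in F5 and at least 116-fold lower than in H7. Sfmbt2, with 3 counts in G5, had a ratio of 120.2 (counting interval 40.8 to 585) in F5 over G5 and of 488 (167 to 2367) in H7 over G5.

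Against H7, Mbnl3 was at least 316-fold higher in G5, as H7 had 0 counts, and Hecw1 had a ratio of 612 (109 to 24207), as H7 had 1 count. Apob was higher in G5 than in H7 by 5.11 on the log2 scale, Tenm2 by 2.12, Fhl1 by 1.66 and Aldh1l2 by 0.71. Lower in G5 than in H7 were Egfr at −3.29, Col12a1 at −2.17, Lama4 at −1.81 and Col3a1 at −1.63.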

How the results depend on the processing

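Fits on the 6 libraries of each pair gave 304 genes higher and 277 lower for G5 against the parental line and 19 calls against F5. Blocking on the rank of a passage within its line gave 1924 and 2024, with 82 calls against F5 and 4356 against H7. On TPM, limma called 582 lower with log2(TPM + 1) and 605 with log2(TPM + 0.1), and 23 against F5 with the former. DESeq2 called 102 against F5. Leaving out each library in turn gave 570 to 959 higher and 496 to 1085 lower against the parental line, 22 to 33 calls against F5 and 1754 to 1982 against H7. Without the second passage of both lines, an alternative chosen after seeing the data, the calls were 654 higher and 646 lower. With only the 6 libraries, higher members numbered 23 for ATF4, 9 for p53, 6 for hypoxia and glycolysis, 2 for the contractile list and 0 for ribosomal proteins. Lower members then numbered 4 each for fibrillar collagens, elastic and matricellular genes, Wnt and BMP and mesenchymal transcription factors, 3 each for the pericellular matrix, cytokines and axon guidance, 1 for NF-κB and 0 for immediate early, TGF-beta and interferon genes, where DESeq2 on all libraries called 7, 4 and 5.

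The passage number is no pairing in these data: libraries that share a number deviated at a correlation of −0.53 (passage 7) and −0.27 (passage 8). Libraries of the same rank in the order of passages did so at 0.47, 0.45 and 0.06. With the replicate block on the passage number the calls were 880 higher and 908 lower, and 21 against F5.

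Of 165 named genes that were called, 131 were called in all 6 fits that left out a library of this comparison, and 0 changed direction under any alternative. With only the 6 libraries of this comparison, 111 of 163 named genes kept their call and 52 lost it. The genes were named from these same data, so that an unchanged direction is no independent check. Changes of 1.5-fold were mostly missed at this depth and number in the simulation.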

Other observations

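Other groups of genes were described after the main lists, with values and no explanation. Of all genes tested, 6.54% were called higher and 6.56% lower against the parental line, or 13.1% in all. Against H7, 8.88% were called higher in G5 and 8.51% lower. The cholesterol and circadian lists, with 12.1% and 17.6% of members called against the parental line, lay near the share of all genes. Among imprinted genes 4 of 29 rose and 8 fell, and the higher count was 1 without G5 passage 9 and 2 without G5 passage 8, parental passage 6 or parental passage 8. Dlk1, a secreted inhibitor of adipogenesis, went from 2366, 4204 and 2551 CPM to 1324, 1639 and 1473 (log2 fold change −1.04, SE 0.19, adjusted p = 0.0045, edgeR), and Snrpn, a spliceosome gene expressed from the paternal allele, from 2.41 ± 0.174 to 5.39 ± 0.665 CPM (n = 3 each). The Dlk1 change lay between −1.19 and −0.73 with each library left out in turn. Of the 17 adipogenic genes 3 rose, or 1 without any of the G5 libraries taken singly, and 2 fell. Plin2, a coat protein of lipid droplets, rose by 0.68 (SE 0.09). In cholesterol and fatty acid synthesis 3 of 33 genes rose and 1 fell against the parental line. The higher count was 0 without G5 passage 7 and 1 without G5 passage 8, G5 passage 9, parental passage 6 or parental passage 8, while against H7 22 were higher in G5 and 1 lower. Of the circadian genes 2 of 17 rose and 1 fell: the repressor Bhlhe41 went from 2.01 ± 0.891 to 6.18 ± 0.419 CPM, and Npas2, a partner of BMAL1, from 1.34 ± 0.183 to 0.169 ± 0.121 CPM. Hoxc8 and Hoxc9, neighbouring homeobox genes, fell by 3.04 (SE 0.20) and 3.46 (SE 0.33), and Hoxc9 stood at 9.96 ± 0.947 CPM in H7 against 2.65 ± 0.0508 in the parental line.

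The median log2 fold change of G5 against the parental line over the tested genes of each numbered chromosome and X lay between −0.14 and 0.09. Chromosome 1 was lowest, with 126 of 1023 genes called lower and 37 higher. These are 12.3% and 3.62%, against 6.56% and 6.54% of all genes tested. Of the 13 genes that were lower in G5 than in all other lines, 5 lie on chromosome 2, which holds 1137 of the 14704 genes tested. The mitochondrial genome had a median of −0.42 over 15 genes, of which 2 were called lower.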
